A study of Mus musculus with 4 samples.

Results

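The insulin-like growth factor (IGF) axis was examined through 8 genes, Igf1, Igf1r, Igfbp2, Igfbp3, Igfbp4, Igfbp5, Igfbp6 and Igfbp7, which were chosen by name from a table of 22691 genes. The table came from RNA-seq of mouse embryonic fibroblasts, mesenchymal cells grown from dissociated female E13.5 fetuses. MD1 fibroblasts (2 libraries) were Smchd1 MD1/MD1; Xist deltaA/+ and WT fibroblasts (2 libraries) were Smchd1 +/+; Xist deltaA/+. Smchd1 encodes a chromatin protein that is needed to keep the inactive X silent. Both groups thus shared an Xist-deltaA allele from a C57BL6/J mother, which leaves the JF1 X of the father as the inactive one. The fathers were F1 hybrids of JF1 and C57BL6/J, so any autosomal locus of a fetus can carry a JF1 or a C57BL6/J paternal allele. Differences of the MD1 genotype and of these inherited blocks cannot be told apart for an autosomal gene, and all 8 genes are autosomal. They lie on 6 chromosomes, none of which is chromosome 17, where Smchd1 lies.

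IGF1 and IGF2 are secreted growth factors that act through the receptor tyrosine kinase IGF1R, which signals through docking proteins to the PI3K-AKT and RAS-ERK pathways. The IGF binding proteins hold the ligands in the extracellular fluid and matrix. They can block access to the receptor or keep a local store, and they are cut by proteases that free the ligand. Fibroblasts and other mesenchymal cells are a main source of several binding proteins.

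Expression was deposited in FPKM, a fragment count scaled by gene length and library size, and the authors gave 1 averaged value for each genotype. How it was averaged over libraries is not given in the sources used here. The spread between libraries is therefore unknown for the 8 genes and no p-value could be formed. A gene counted as measured when its FPKM averaged 1 or more over both groups and was above 0 in each, which held for 11399 genes and for all 8 of the axis. Ratios are log2 of (FPKM + 1) in MD1 over WT unless a percentage of the WT level is given. Counts past 2-fold use this ratio, so a gene with low FPKM can be more than 2-fold apart in FPKM and stay uncounted. Smchd1 itself had 1.94 FPKM in MD1 and 14.7 in WT. The fibroblast label was met by the marker genes, with Vim at 2802 FPKM in MD1 and 2790 in WT, and Col1a1 at 1081 in MD1 and 1688 in WT. Libraries held 521768 to 806626 allele-specific X-linked reads, while total depth is unknown.

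Of the 8 genes, 4 were at least 2-fold lower in MD1 (Igf1, Igfbp2, Igfbp3 and Igfbp5) and 0 were at least 2-fold higher, beside 2.81% of all measured genes that were at least 2-fold lower and 1.39% that were at least 2-fold higher. Counted by sign alone, 7 of the 8 were lower in MD1, beside 49.2% of all measured genes. The 8 genes were chosen with earlier results of these data known, so these counts are a description and not a test. In bulk RNA, fewer cells of a type and less RNA per cell cannot be told apart. The median log2 ratio of the 8 genes was -1.05, and the median over all 11399 genes was 0.0058. The genes were thus far from uniform, with log2 ratios from -2.70 at Igfbp5 to 0.94 at Igfbp4. Igfbp4 and Igfbp7 were the closest to the 2-fold bound from inside it, at 0.94 and -0.92, and Igf1 was the closest from outside, at -1.17.

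The promoters of 4 binding protein genes are shown because these genes had the largest ratios in each direction. Each is a RefSeq window of 300 bases (GRCm38.p6) that runs from 250 bases before to 50 bases after the transcript start, read along the strand of the gene. Capitals mark TATAAA with its variants TATATA and TATTTA (called TATA-like here), and the GC box letters GGGCGG, where they occur on that strand. The windows are Igfbp5 (chr1:72874816-72875115, minus strand), Igfbp3 (chr11:7213874-7214173, minus strand), Igfbp2 (chr1:72824230-72824529, plus strand) and Igfbp4 (chr11:99040994-99041293, plus strand).
Igfbp5: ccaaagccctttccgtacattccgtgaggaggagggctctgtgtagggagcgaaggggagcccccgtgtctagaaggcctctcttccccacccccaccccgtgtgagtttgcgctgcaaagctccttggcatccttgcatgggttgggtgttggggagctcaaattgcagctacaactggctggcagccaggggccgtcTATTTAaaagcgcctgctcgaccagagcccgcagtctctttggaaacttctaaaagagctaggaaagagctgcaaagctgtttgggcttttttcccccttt
Igfbp3: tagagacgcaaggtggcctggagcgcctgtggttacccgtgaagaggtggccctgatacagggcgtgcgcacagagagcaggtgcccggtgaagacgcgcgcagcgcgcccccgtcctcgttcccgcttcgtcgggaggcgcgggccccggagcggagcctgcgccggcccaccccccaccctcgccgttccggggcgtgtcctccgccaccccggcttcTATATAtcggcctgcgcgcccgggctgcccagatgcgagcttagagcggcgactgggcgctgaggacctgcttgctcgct
Igfbp2: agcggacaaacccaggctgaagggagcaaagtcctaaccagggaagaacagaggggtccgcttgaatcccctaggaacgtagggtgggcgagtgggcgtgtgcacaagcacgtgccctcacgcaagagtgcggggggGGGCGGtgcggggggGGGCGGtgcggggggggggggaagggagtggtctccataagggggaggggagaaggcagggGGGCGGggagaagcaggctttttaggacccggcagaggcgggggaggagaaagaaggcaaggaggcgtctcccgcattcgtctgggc
Igfbp4: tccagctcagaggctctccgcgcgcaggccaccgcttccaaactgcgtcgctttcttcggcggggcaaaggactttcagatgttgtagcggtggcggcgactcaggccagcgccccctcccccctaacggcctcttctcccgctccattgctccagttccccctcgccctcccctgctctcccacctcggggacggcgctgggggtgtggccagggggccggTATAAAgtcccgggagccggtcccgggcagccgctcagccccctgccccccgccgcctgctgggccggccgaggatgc

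The windows differ in make-up. Igfbp5 holds TATTTA at position -51 from the start, Igfbp3 holds TATATA at -30 and Igfbp4, the gene that was higher in MD1, holds TATAAA at -28. The Igfbp2 window shown has none of the 3 and carries GGGCGG at -113, -98 and -37. A second RefSeq window of Igfbp2 (chr1:72825137-72825436, not shown) has 14 CpG dinucleotides and none of these words. On the gene's strand, TATAAA occurs in 8.32%, TATATA in 5.67%, TATTTA in 7.26% and any of the 3 in 18.1% of 32851 promoter windows of the same length, and GGGCGG in 23.4%. On either strand the shares are 13.6%, 5.67% and 13.7% for the TATA-like words and 35.7% for GGGCGG. The windows hold 10 CpG dinucleotides at Igfbp5, 37 at Igfbp3, 18 at Igfbp2 and 27 at Igfbp4, against a median of 7 over all windows. The span from the window's start site to the RefSeq gene end was equal to the span in the deposited table at Igfbp5 and differed from it by 3 bases at Igfbp2, 7 at Igfbp3 and 28 at Igfbp4. The builds differ, so whether the table used the same starts was not tested, and motif positions hold for the RefSeq starts only. For Igf1 the spans differed by 2055 bases, and its window is not shown.

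The ligand gene Igf1 had 1.79 FPKM in MD1 and 5.26 FPKM in WT, or 34.0% of the WT level (chromosome 10, 87321801 to 87399792, mm9, plus strand). It was the lowest of the 8 genes in both groups, and stood below the median measured gene, which had 12.2 FPKM in MD1 and 12.1 in WT. The main fetal ligand gene, Igf2, which is imprinted and expressed from the paternal copy, had 365 FPKM in MD1 and 936 in WT, a log2 ratio of -1.36. The summed FPKM of both ligand genes was 366 in MD1 and 941 in WT, so Igf2 made up nearly all of it in each group. The insulin genes Ins1 and Ins2 were listed at 0 in both groups.

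The receptor genes had ratios nearer to 0 than the ligand genes. Igf1r, the receptor tyrosine kinase for both ligands (chromosome 7, 75097143 to 75378553, mm9, plus strand), had 20.6 FPKM in MD1 and 22.6 FPKM in WT, a log2 ratio of -0.12 and 91.5% of the WT level. The insulin receptor gene Insr, whose product can pair with IGF1R, had 6.61 FPKM in MD1 and 6.39 in WT. Igf2r, the mannose 6-phosphate receptor that carries IGF2 to lysosomes, had 65.4 FPKM in MD1 and 104 in WT, a log2 ratio of -0.66. The related receptor gene Insrr was under 0.1 FPKM in both groups.

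**Figure D1:**
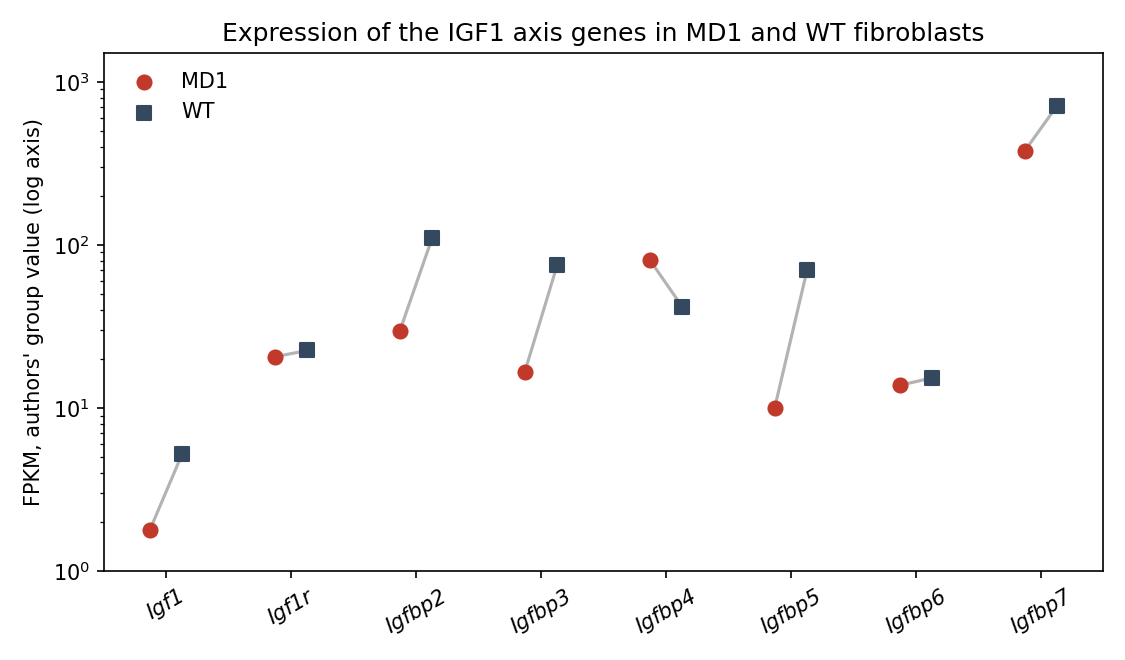
FPKM of the 8 genes on a log axis, with red circles for MD1 and dark squares for WT. Each point is the authors' value for 1 genotype and has no error bar, since FPKM was given as 1 averaged value per genotype. MD1 lies below WT at 7 genes, by the most at Igfbp5 (10.04 against 70.5 FPKM), and above it at Igfbp4 (81.1 against 41.9 FPKM).

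The binding protein with the largest ratio was Igfbp5, which binds extracellular matrix and is abundant in developing muscle and bone (chromosome 1, 72904639 to 72921439, mm9, minus strand). It had 10.04 FPKM in MD1 and 70.5 FPKM in WT, or 14.2% of the WT level, a log2 ratio of -2.70. Among the 11399 measured genes this ratio ranked 24 from the lowest. Igfbp3 encodes the main carrier of IGFs in blood (chromosome 11, 7106096 to 7113926, mm9, minus strand). It had 16.6 FPKM in MD1 and 75.3 FPKM in WT, or 22.1% of the WT level, and its log2 ratio of -2.11 ranked 48 from the lowest. Igfbp2 encodes a binding protein that is abundant in fetal tissue (chromosome 1, 72871054 to 72899045, mm9, plus strand). It had 29.6 FPKM in MD1 and 111 FPKM in WT, or 26.8% of the WT level, a log2 ratio of -1.87 and rank 68 from the lowest.

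Igfbp4 was the single gene of the 8 that was higher in MD1. It encodes a binding protein that restrains IGF action and is cut by the protease PAPP-A (chromosome 11, 98902574 to 98913957, mm9, plus strand). Igfbp4 had 81.1 FPKM in MD1 and 41.9 FPKM in WT, 1.94 times the WT level, a log2 ratio of 0.94. Its ratio ranked 193 from the highest of 11399. Igfbp6, whose product prefers IGF2 over IGF1 (chromosome 15, 101974617 to 101979943, mm9, plus strand), had 13.8 FPKM in MD1 and 15.3 FPKM in WT, a log2 ratio of -0.14. Igfbp7 encodes a related protein that binds IGFs weakly (chromosome 5, 77778265 to 77837070, mm9, minus strand). It was the most abundant of the 8, with 376 FPKM in MD1 and 714 FPKM in WT, or 52.6% of the WT level and a log2 ratio of -0.92. In WT it ranked 65 and in MD1 123 by level among all measured genes. Igfbp1, a binding protein made mainly in liver, was listed at 0 in MD1 and had 0.00909 FPKM in WT. Igfals, the subunit that joins IGFBP3 in blood, was listed at 0 in MD1 and had 0.0126 FPKM in WT.

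**Figure D2:**
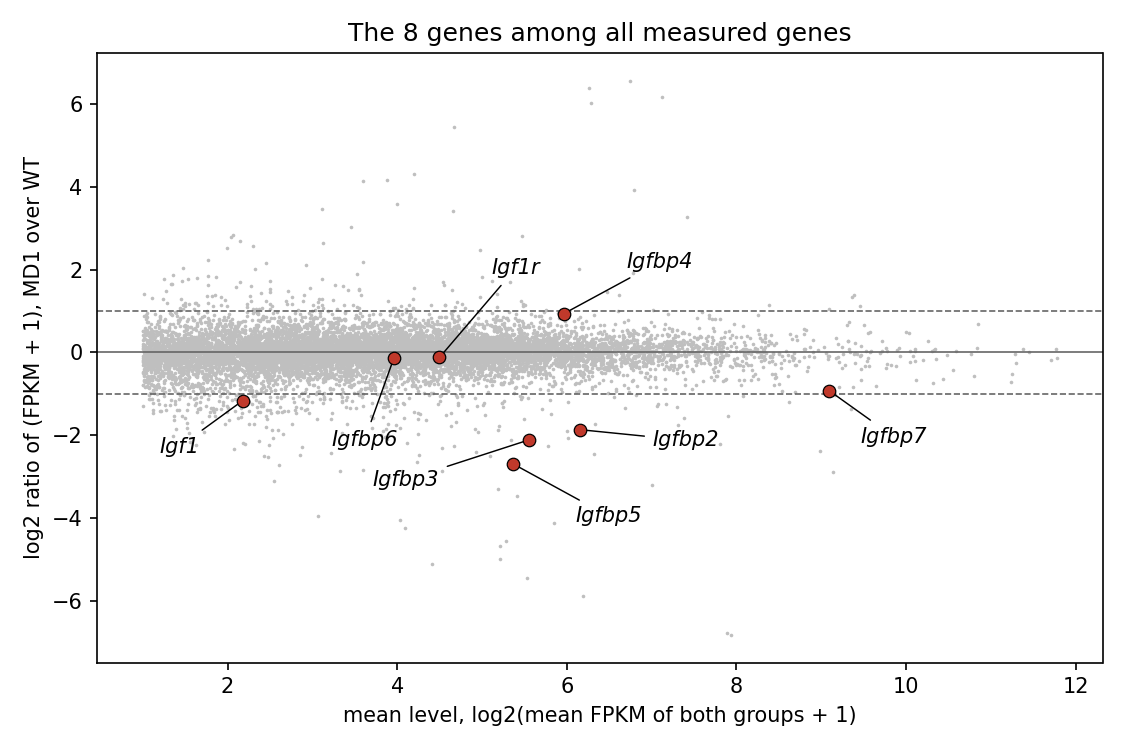
Log2 ratio of (FPKM + 1) in MD1 over WT against the log2 mean level of both groups for 11399 measured genes (grey points), with the 8 genes in red and 2-fold bounds dashed. Igfbp2, Igfbp3 and Igfbp5 lie below the lower bound at -1.87, -2.11 and -2.70, while Igf1r and Igfbp6 lie near 0.

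FPKM is scaled by gene length, so the levels of the binding proteins can be added. Igfbp2 to Igfbp6, the binding proteins of high affinity, summed to 151 FPKM in MD1 and 314 FPKM in WT, or 48.2% of the WT level. The make-up of this sum was different in the 2 groups. Igfbp4 contributed 53.7% of it in MD1 and 13.4% in WT. Igfbp2 contributed 19.6% in MD1 and 35.3% in WT, Igfbp3 10.98% in MD1 and 24.0% in WT, and Igfbp5 6.64% in MD1 and 22.5% in WT. Igfbp6 contributed 9.13% in MD1 and 4.88% in WT although its own level was close in both. The order by level was thus Igfbp4, Igfbp2, Igfbp3, Igfbp6, Igfbp5 in MD1, and Igfbp2, Igfbp3, Igfbp5, Igfbp4, Igfbp6 in WT. With no spread per group, neighbours in these orders, such as Igfbp3 and Igfbp5 in WT or Igfbp3 and Igfbp6 in MD1, cannot be said to differ. With Igfbp7 added, the sum was 527 FPKM in MD1 and 1028 FPKM in WT, and Igfbp7 held 71.3% of it in MD1 and 69.5% in WT.

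**Figure D3:**
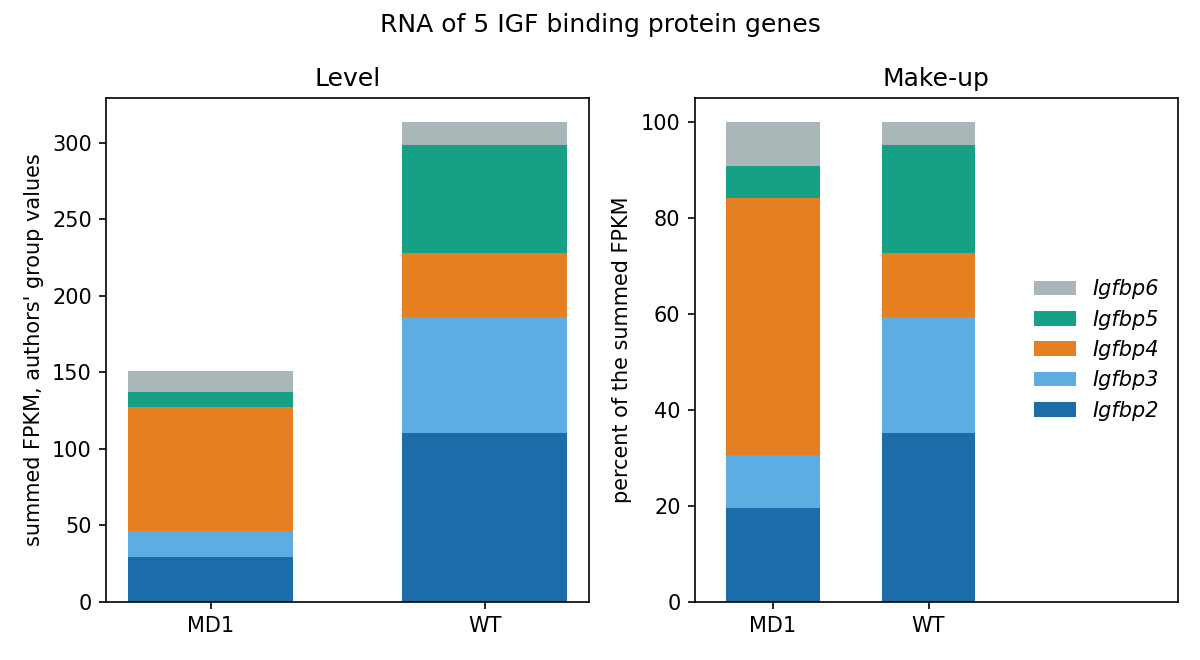
Stacked FPKM of Igfbp2 to Igfbp6 in MD1 (left bar) and WT (right bar), as summed level and as percent of the sum, from the authors' group values without error. The sum is 151 FPKM in MD1 and 314 FPKM in WT, and the Igfbp4 share is 53.7% in MD1 and 13.4% in WT.

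Several of these genes are neighbours. Igfbp2 and Igfbp5 face each other on chromosome 1 with 5593 bases between their ends, and both were at least 2-fold lower in MD1. The nearest measured gene on the Igfbp2 side, Rpl37a, a ribosomal protein gene 110666 bases away whose FPKM may be uncertain because of near-identical copies, had 244 FPKM in MD1 and 228 in WT. On the Igfbp5 side the nearest was Tns1, 1035365 bases away, at 42.4 FPKM in MD1 and 61.2 in WT. Igfbp3 and Igfbp1 form a second pair, with 3546 bases between them, of which Igfbp1 was not measured. The nearest measured genes around Igfbp3 were Ramp3, at 2.58 FPKM in MD1 and 0.980 in WT, and Tns3, at 48.3 FPKM in MD1 and 38.2 in WT.

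Igfbp4 lies 17070 bases from Top2a, the gene of the mitotic DNA topoisomerase, and both were higher in MD1. Top2a had 70.4 FPKM in MD1 and 39.3 in WT, a log2 ratio of 0.83, and Cdc6, a replication licensing gene named here after its values were seen, had 7.42 FPKM in MD1 and 3.86 in WT at 133 kb between starts. On the other side of Igfbp4, Smarce1 had 30.5 FPKM in MD1 and 28.3 in WT. Over the 13 other measured genes within 500 kb of Igfbp4, log2 ratios ran from -0.58 to 0.83, with a median of 0.059. Top2a thus had the highest ratio of this window. The measured genes on either side of Igf1 were Nt5dc3 and Parpbp, with log2 ratios of 0.19 and 0.49. Those of Igf1r were 4833412C05Rik (-0.66) and Arrdc4 (0.58), and those of Igfbp6 were Spryd3 (-0.12) and Csad (-0.73). Igfbp7 was flanked by Polr2b (0.29) and Lphn3 (-0.31). Polr2b is transcribed from the opposite strand and overlaps Igfbp7 by 89 bases.

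Over all 8 loci, 53 other measured genes had some part within 500 kb, with a median log2 ratio of 0.035. In (FPKM + 1), 0 of them were at least 2-fold lower or higher in MD1. This stands beside 4.19% of all measured genes, a share at which few of 53 would be past it. The count depends on the added 1 at low levels. Spink2, near Igfbp7, had 1.99 FPKM in MD1 and 0.617 in WT, more than 2-fold apart in FPKM alone, and a log2 ratio of 0.89. Igfbp3 had 0 measured neighbours in its window.

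**Figure D4:**
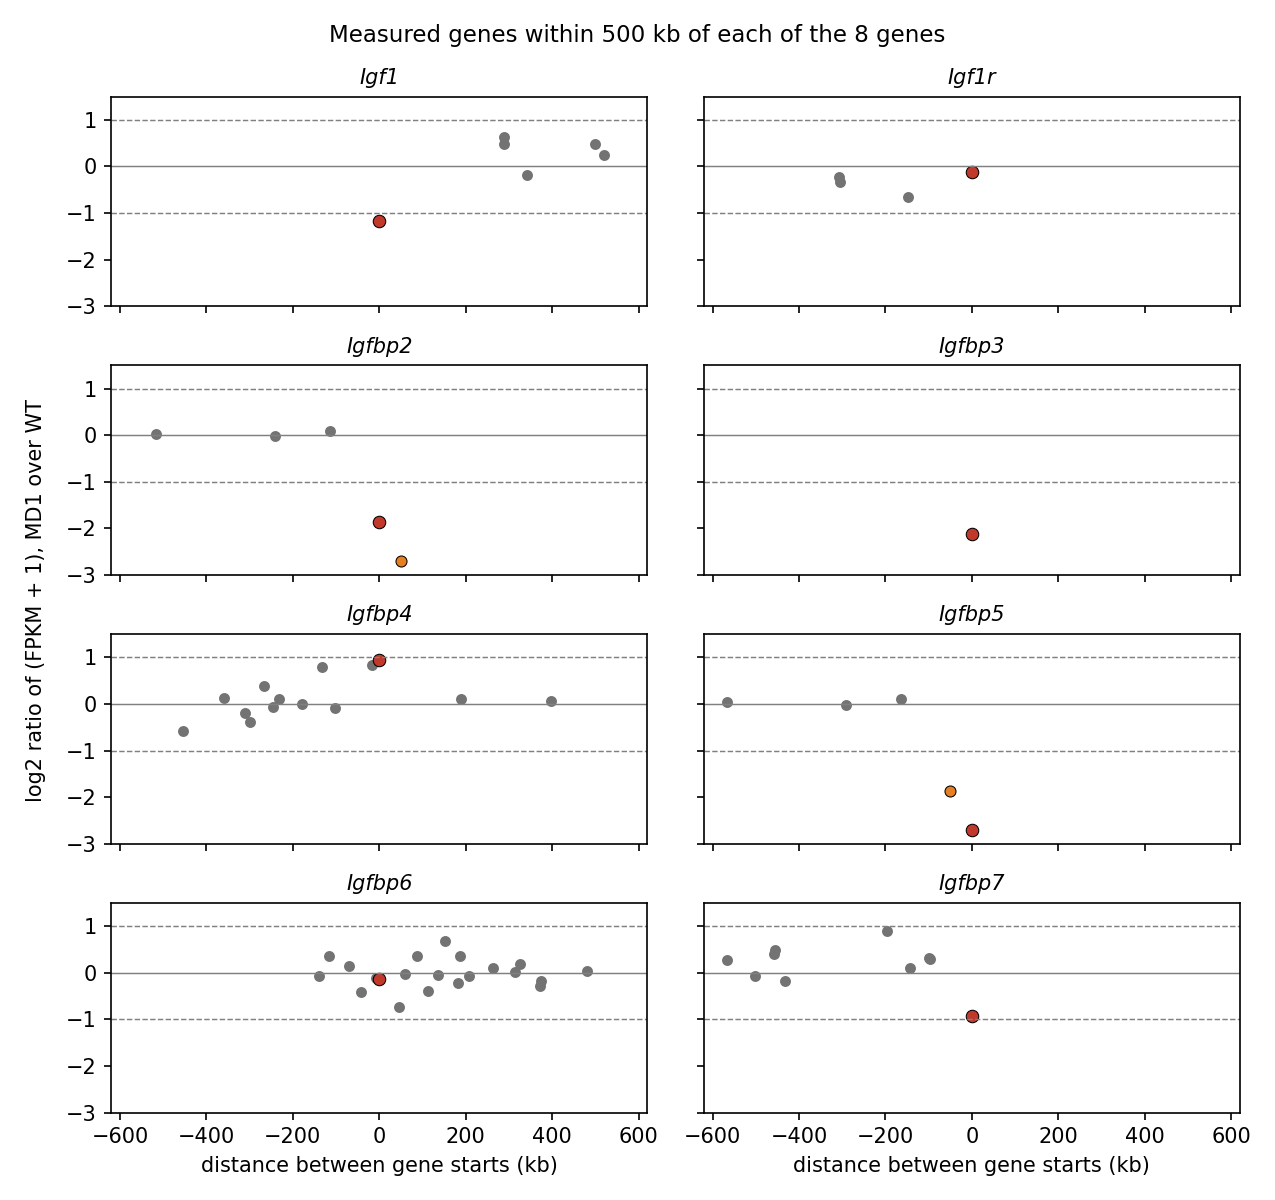
Log2 ratio of (FPKM + 1) in MD1 over WT for measured genes with some part within 500 kb of each of the 8 genes, against the distance between gene starts in kb, with higher map positions to the right. Red marks the named gene, orange another of the 8 and grey any other gene; dashed lines mark 2-fold. All 53 grey genes lie between the dashed lines.

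The genes closest in level to those past 2-fold, by Euclidean distance in log2(FPKM + 1) over the 2 group values, were Dgka (0.048) and Galnt3 (0.063) for Igf1, Mcam (0.22) and Ly6a (0.32) for Igfbp2, Rpl31 (0.27) and Eno3 (0.30) for Igfbp3, and Rps6 (0.31) and Eno3 (0.48) for Igfbp5. Eno3, the enolase of muscle, had 14.2 FPKM in MD1 and 64.7 in WT. Mcam, a cell adhesion molecule of vascular cells, had 26.2 FPKM in MD1 and 100.3 in WT. With 2 values per gene this describes level and ratio only. Rpl31 and Rps6 are ribosomal protein genes, whose FPKM may be uncertain because of near-identical copies.

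Markers of muscle cells were lower in MD1 together with these genes. Beside the counts that follow, 2.81% of all measured genes were at least 2-fold lower and 4.19% were past 2-fold in either direction. The lists were chosen with earlier results of these data known, so these shares give no expectation for a list. Of 8 measured skeletal muscle genes 6 were at least 2-fold lower, with Des at 12.0 FPKM in MD1 and 46.2 in WT, and the list summed to 52.9 FPKM in MD1 and 170 in WT. The regulators Myod1 and Myf5 were at 0.545 and 0.0405 FPKM in MD1, and at 1.30 and 0.243 FPKM in WT. Of 6 smooth muscle genes 4 were at least 2-fold lower, and the list summed to 3466 FPKM in MD1 and 5739 in WT. Most of this sum came from Acta2 (1826 FPKM in MD1 and 3015 in WT) and Tagln (1429 in MD1 and 2136 in WT). Neither of these was past 2-fold. The largest ratio of the smooth muscle list was at Myh11, with 2.31 FPKM in MD1 and 25.6 in WT. Of 7 measured cartilage and bone genes 3 were at least 2-fold lower, and the list summed to 138 FPKM in MD1 and 286 in WT. This list was mixed in direction, with 5 genes below and 2 above 0 on the log2 scale. The 3 at least 2-fold lower were Ibsp, Col11a1 and Comp. Ibsp had 0.0172 FPKM in MD1 and 14.7 in WT, and Col11a1 had 36.6 in MD1 and 122.7 in WT. Comp had 0.264 FPKM in MD1 and 2.35 in WT. The 2 above were Sox9 (7.10 FPKM in MD1 and 4.41 in WT) and Runx2 (9.03 in MD1 and 7.35 in WT). Macrophage and blood markers, listed because macrophages make Igf1, summed to 121 FPKM in MD1 and 144 in WT, and were mixed in direction. Of 9 measured genes 6 were below and 3 above 0 on the log2 scale, and 0 were past 2-fold in (FPKM + 1). C1qb had 3.59 FPKM in MD1 and 7.20 in WT, or 49.8% of the WT level. Cd14 had 3.997 FPKM in MD1 and 2.74 in WT. Of 10 fibroblast genes 1, Col3a1, was at least 2-fold lower (78.7 FPKM in MD1 and 189 in WT), while 6 of the 10 were above 0, with Pdgfra the highest ratio (9.25 FPKM in MD1 and 4.79 in WT). The endothelial, epithelial and adipocyte lists had 0 genes past 2-fold in (FPKM + 1). Their summed levels were 7.96, 24.8 and 27.6 FPKM in MD1 and 9.95, 19.95 and 35.5 FPKM in WT. Emcn, the endothelial gene with the largest ratio, had 1.58 FPKM in MD1 and 4.12 in WT. The adipocyte gene Pparg had 6.93 FPKM in MD1 and 14.4 in WT. Both were more than 2-fold lower in FPKM alone. The defining endothelial genes Pecam1 and Cdh5 were too low to count as measured, at 0.117 and 0.153 FPKM in MD1 and 0.0758 and 0.0455 FPKM in WT. The neural list was higher in sum, at 61.7 FPKM in MD1 and 35.9 in WT. Of its 5 genes Map2 was at least 2-fold lower (2.05 FPKM in MD1 and 6.44 in WT) and Stmn2 at least 2-fold higher (24.8 FPKM in MD1 and 9.62 in WT), and Tubb3 had 31.6 FPKM in MD1 and 16.4 in WT. The 4 hepatocyte genes summed to 0.483 FPKM in MD1 and 0.473 in WT. Whether these markers stand for separate cells was not tested. The part of such cells in the ratios of Igf1, Igfbp2, Igfbp3 and Igfbp5 was not tested either.

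Among genes that act on the binding proteins, 7 proteases and protease inhibitors were measured. Of these 5 were below and 2 above 0 on the log2 scale, with a median of -0.25. None (0 of 7) was past 2-fold, which is near the 4.19% of all measured genes. Plau, the gene of urokinase, had 63.1 FPKM in MD1 and 85.7 in WT. Pappa, the protease of IGFBP4, had 14.4 FPKM in MD1 and 19.6 in WT. Other genes that encode an IGFBP domain also had 0 of 10 past 2-fold, with a median of -0.19. The matricellular gene Wisp2 had 12.3 FPKM in MD1 and 21.9 in WT, and its relative Ctgf had 1192 FPKM in MD1 and 851 in WT. Growth hormone signalling, which drives Igf1 in liver, had 0 of 6 genes past 2-fold and a median of 0.12, with the inhibitor Socs2 at 10.4 FPKM in MD1 and 7.17 in WT and the kinase Jak2 at 12.5 in MD1 and 9.77 in WT.

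Downstream of the receptor, 52 genes of the docking, PI3K-AKT and RAS-ERK groups were measured, and 46 of them had log2 ratios within 0.5 of 0, beside 82.1% of all measured genes. Their median was -0.032. The single gene past 2-fold, near the 4.19% of all measured genes, was Grb14, an adaptor that inhibits the insulin receptor, at 35.96 FPKM in MD1 and 12.04 in WT. Its relative Grb10, an imprinted adaptor gene, had 175 FPKM in MD1 and 281 in WT. In the PI3K arm 0 of 25 genes were past 2-fold in (FPKM + 1). The largest ratios there were at the catalytic subunit gene Pik3cd and the regulatory subunit gene Pik3r3. Pik3cd had 2.49 FPKM in MD1 and 1.24 in WT, or 201% of the WT level, and Pik3r3 had 4.94 in MD1 and 8.03 in WT. In the ERK arm, with 0 of 15 past 2-fold, the largest ratio was at the kinase gene Araf (41.6 FPKM in MD1 and 28.7 in WT). Among 11 measured FOXO targets, genes that AKT signalling restrains, 1 was at least 2-fold lower, with a list median of -0.18. That gene, Pik3ip1, an inhibitor of PI3K, had 2.12 FPKM in MD1 and 7.18 in WT, and the stress gene Sesn3 had 4.97 in MD1 and 9.30 in WT. The Igf2 mRNA binding protein genes Igf2bp1 and Igf2bp2 had log2 ratios of 0.040 and -0.076.

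**Figure D5:**
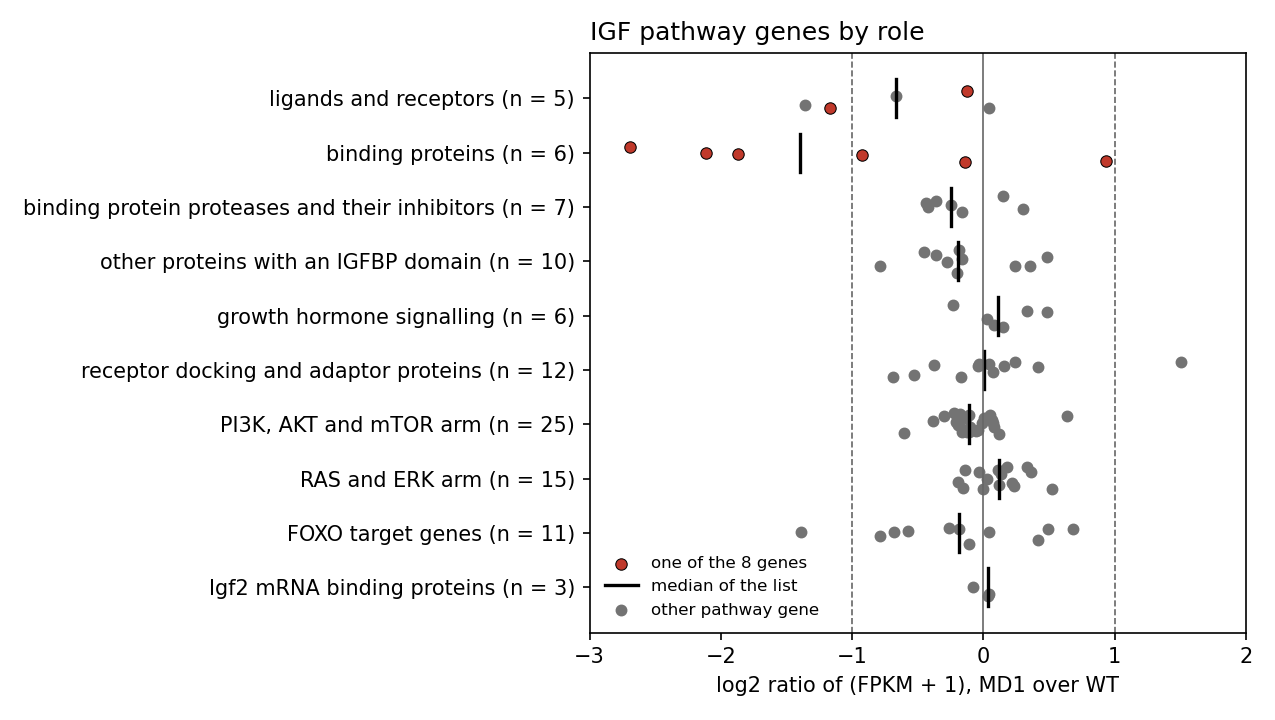
Log2 ratio of (FPKM + 1) in MD1 over WT for the measured genes of each list, with the number measured in brackets, the 8 genes in red, other genes in grey, list medians as black bars and 2-fold bounds dashed. The binding protein median is -1.40 and the ligand and receptor median is -0.66, while the other lists have medians between -0.25 and 0.12.

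A replicated measure existed for X-linked genes, the percentage of allele-specific reads from the paternal JF1 allele, and 4 genes of the signalling lists had enough reads for a test. The paternal share was higher in MD1 at 3 of the 4, beside 74.4% of 391 informative X-linked genes that were higher and 0.256% that were lower (edgeR's quasi-likelihood test, Benjamini-Hochberg adjusted, FDR 0.05). Foxo4, a transcription factor that AKT holds out of the nucleus, had shares of 31.5% and 31.6% in MD1 and 0% and 0.397% in WT. These average 31.6% ± 0.0868 in MD1 and 0.198% ± 0.281 in WT (SD, n = 2 each; edgeR adjusted p = 2.68e-24). Elk1, an ERK-activated transcription factor, had 23.1% and 26.8% in MD1 and 0% and 0.8% in WT. It averaged 24.96% ± 2.597 in MD1 and 0.4% ± 0.566 in WT (SD, n = 2 each; edgeR adjusted p = 7.48e-13). Rps6ka3, a kinase downstream of ERK, had 3.55% and 3.80% in MD1 and 0.172% and 0.0907% in WT. It averaged 3.68% ± 0.179 in MD1 and 0.131% ± 0.0574 in WT (SD, n = 2 each; edgeR adjusted p = 1.37e-14). The MD1 share was far smaller at Rps6ka3 than at Foxo4 and Elk1. The related kinase gene Rps6ka6 had 0% and 0.930% in MD1 and 0% and 0.926% in WT, so the groups overlapped. It averaged 0.465% ± 0.658 in MD1 and 0.463% ± 0.655 in WT (SD, n = 2 each; edgeR adjusted p = 1), from 296 reads in MD1 and 164 in WT.

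The total level did not follow the share at each of these genes. Foxo4 had 6.53 FPKM in MD1 and 7.62 in WT, and Elk1 had 13.498 FPKM in MD1 and 12.2 in WT. Rps6ka3 had 13.6 FPKM in MD1 and 15.1 in WT, and Rps6ka6 had 2.15 FPKM in MD1 and 1.501 in WT. Araf had a paternal share of 75.0% ± 2.41 over 2 MD1 libraries from 73 reads, while its 7 WT reads gave no share. The docking protein gene Irs4 had 4 allele-specific reads in MD1 and 6 in WT, and no share was given for it.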

How the data were processed

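The 8 genes and the gene lists were chosen with earlier results of these data known. Per the labels' protocols, polyadenylated RNA of 4 libraries was prepared with a stranded kit. The authors deposited FPKM as 1 averaged value per group, formed in a way that is not stated, counts of allele-specific reads for each X-linked gene in each library, and the JF1 share of those reads as a fraction. The submitters' processing notes name mm9, Cufflinks 2.2.1 and Cuffdiff without a role. Neither the aligner nor the annotation was given in the sources used here. Table starts were counted from 0 and are printed 1-based.

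From FPKM, ratios were formed with a pseudocount of 1. Named were the 8 genes, all ligand, receptor and binding protein genes, other listed genes past 2-fold or else the 2 largest ratios per list, X-linked listed genes, and the nearest measured genes by position and by level. List entries C1s, Rack1, Frap1, Foxo3a, Hras1 and Adgre1 were not found by symbol. One gene that the rule names is not reported here.

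JF1 counts were recovered as share times reads. Informative genes (391) had a share in all 4 libraries, 20 or more reads on average, and Xist was left out. edgeR 4.0.16 (R 4.3.3) fitted library, allele and allele-by-genotype terms, two-sided. DESeq2 1.42.0 was an alternative. No label says that replicates came from separate fetuses, so these p-values measure the spread between libraries, which may be technical. Replicates differed beyond sampling noise in the number of allele-specific reads per gene (chi-square per degree of freedom 90.6 in MD1 and 98.1 in WT). These values describe read numbers and not the paternal share.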

Additional observations from a re-analysis of the deposited data

How the results depend on the processing

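Each of the 8 genes kept its direction and its side of the 2-fold bound under every alternative that could give it a value: pseudocounts of 0.1 and 0.01, no filter, a filter at a mean FPKM of 5 (which leaves out Igf1, so that 3 of 7 genes are at least 2-fold lower), rescaling to a common sum, centring on the median gene and quantile normalization. Over these, the log2 ratio ranged from -1.55 to -1.12 for Igf1, -2.81 to -2.68 for Igfbp5, and 0.93 to 0.98 for Igfbp4. All of these alternatives start from the same group values, so they say nothing of the spread between libraries. The median of the 8 genes passed to the inner side of the bound with the filter at 5 (-0.92, where Igf1 is not among the genes) and with quantile normalization (-0.96; the cause was not tested). Genes at least 2-fold lower numbered 494, and those at least 2-fold higher 259, with a pseudocount of 0.1, 513 and 278 with 0.01, and 191 and 94 with the filter at 5, which tests fewer genes, against 320 and 158 as reported. Without a filter, 1.45% of genes were at least 2-fold lower. The counts past 2-fold among neighbours, pathway lists and marker lists were not repeated under these alternatives.

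No library could be left out, and no replicate block fitted, for FPKM, which was given as 1 value per group. For the paternal share, 3 of the 4 X-linked genes remained higher in MD1 under all alternatives, the same genes each time. The alternatives were other minimums on reads, DESeq2, each library left out in turn and a replicate block, with a count of 3 in each; with the block, 284 of 391 X-linked genes were higher in MD1, against 291 without it. Same-numbered libraries deviated together with a correlation of 0.19 in share and 0.39 in reads, over 2 number pairs, and no label ties them to a shared litter or day. The difference at Rps6ka6 was near 0 and its sign was not stable, with log2 odds of 0.073 as reported, -0.034 with the replicate block, -0.0020 in DESeq2, and -2.03 to 2.12 with 1 library left out, none of which passed.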
